A study of Rattus norvegicus with 16 samples.

Results

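The Clcn5 cluster is a row of miRNA hairpins inside Clcn5, the X-linked gene of an endosomal chloride and proton exchanger. Its miRNAs were taken by name, as every listed arm of miR-532, miR-188, miR-362, miR-501 and miR-500, which gave 10 of the 722 miRNAs in the count tables. Within it rno-miR-188-5p and rno-miR-532-3p were selected on measured levels in these libraries, in a comparison that is not recorded. Their levels and differences between groups are therefore a description, without a test, and tests are given for the other miRNAs of the cluster. Small RNA was sequenced from the amygdala, a forebrain region of fear and emotional learning, and from the dorsal raphe, a midbrain nucleus of serotonin neurons that project to the forebrain. The 4 groups were high responder amygdala, low responder amygdala, high responder dorsal raphe and low responder dorsal raphe, with 4 libraries each and 16 in all. High and low responders are rat lines bred for strong or weak locomotion in a new environment, and all samples came from brains of rats 60 days old.

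An intronic miRNA cluster is transcribed as a single precursor, from which Drosha and Dicer cut each hairpin and release a 5p and a 3p arm, of which usually one is kept in Argonaute. The bases 2 to 8 of the kept arm, the seed, pair with target messenger RNAs. Members of a cluster share their transcription, but cutting, arm choice and decay can differ between hairpins. In rat hippocampal neurons miR-188-5p represses neuropilin-2 and affects dendritic spines, and in rodent neurons miR-501-3p represses the glutamate receptor subunit GluA1. miR-532-5p is known from human tumours, where it represses RUNX3, and miR-362-5p from human tumours, where it represses the deubiquitinase CYLD.

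The hairpins lie on the same strand in the order miR-532, miR-188, miR-362, miR-501 and miR-500. In the RefSeq table of build GRCr8 all 5 fall inside Clcn5, and they span 11542 bases. Mir532 is at chrX:17919185-17919263 and Mir188 at chrX:17919585-17919664, both on the plus strand and 321 bases apart. Mir362 follows 6820 bases further, at chrX:17926485-17926549. Mir501 comes 639 bases later, at chrX:17927189-17927272, and Mir500 after another 3374 bases, at chrX:17930647-17930726. A further hairpin, Mir3560, overlaps Mir501 on the opposite strand. The row of miR-3560 held 0 to 4 counts in a library and 26 over all libraries, against 579 for miR-501-3p. The build behind the deposited counts is not given in the sources used here, and the positions describe the RefSeq table only.

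RefSeq holds mature sequences for 9 of the 10 miRNAs, all but miR-362-5p. Those shown are the arms that carry the results below and miR-188-3p, which resembles miR-532-3p. Capitals mark the seed, bases 2 to 8.
miR-532-5p: cAUGCCUUgaguguaggacugu
miR-532-3p: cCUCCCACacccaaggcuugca
miR-188-5p: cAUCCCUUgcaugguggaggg
miR-188-3p: cUCCCACAugcaggguuugc
miR-362-3p: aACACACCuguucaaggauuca
miR-501-3p: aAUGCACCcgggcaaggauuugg
miR-500-3p: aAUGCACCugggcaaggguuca

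miR-501-3p and miR-500-3p have the same seed and differ at 4 of 22 aligned bases, the fewest mismatches in the cluster, together with miR-532-3p and miR-188-3p, which differ at 4 of 20 aligned bases with an offset of 1. miR-362-3p differs from miR-500-3p at 5 of 22 bases, and its seed is also that of miR-329-3p. The seed of miR-532-5p is also that of miR-511-5p. miR-188-5p shares its seed with no other rat miRNA of the table. The sources used here do not say how the authors counted reads that match several miRNAs, so miR-500-3p and miR-501-3p may have shared reads and their levels are uncertain.

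The libraries held 1741167 to 8134915 counts, and the cluster took 0.0578% to 0.234% of them. Replicate 4 of low responder raphe and replicate 1 of high responder amygdala stood apart, with root mean square deviations over all miRNAs of 1.03 and 0.968 from their group means on the log2 scale, against 0.285 to 0.880 elsewhere. Where leaving them out ends a call or moves a difference named below by over 1.5 times, the value without them is given. Markers of other cells differed between the regions as well. The 4 neuronal markers summed to 63151 to 128698 CPM (counts scaled to library size) in amygdala and 23511 to 44288 CPM in raphe, with 3 called higher in amygdala. The 3 oligodendrocyte markers summed to 4275 to 11052 CPM in amygdala and 10236 to 23225 CPM in raphe, and all 3 were called lower. The 3 muscle and 2 hindbrain Hox markers were also all called lower in amygdala, the 2 choroid plexus markers were both called higher and 1 of 4 microglia and leukocyte markers was called lower. None of the listed markers was at 0 in all libraries, and their part in the results below was not tested. In pieces of tissue, fewer cells of a type and less RNA per cell cannot be told apart.

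miR-532-5p made up most of the cluster. Its level averaged 974 CPM (library sizes scaled by the TMM method of edgeR, as in all CPM values here) over the 16 libraries, which put it at rank 101 of the 639 miRNAs that passed the low count filter. miR-532-3p (25 CPM), miR-188-5p (19.6 CPM), miR-362-5p (18.7 CPM), miR-362-3p (15.1 CPM), miR-500-3p (9.06 CPM) and miR-501-3p (8.84 CPM) stood at ranks 341 to 416. miR-500-5p (1.46 CPM) and miR-188-3p (1.42 CPM) were near the lower end, with 1 to 12 and 1 to 13 counts in a library. miR-501-5p, with 2 to 15 counts in a library and 82 in all, did not pass the filter. At these depths 3 counts stood for 0.369 to 1.72 CPM before scaling, so levels of miR-188-3p and miR-500-5p cannot be told from this floor in several libraries. The same holds for miR-500-3p in high responder amygdala replicate 1 and miR-362-3p in low responder raphe replicate 4, with 2 counts each. This limit covers counting error only.

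**Figure D1:**
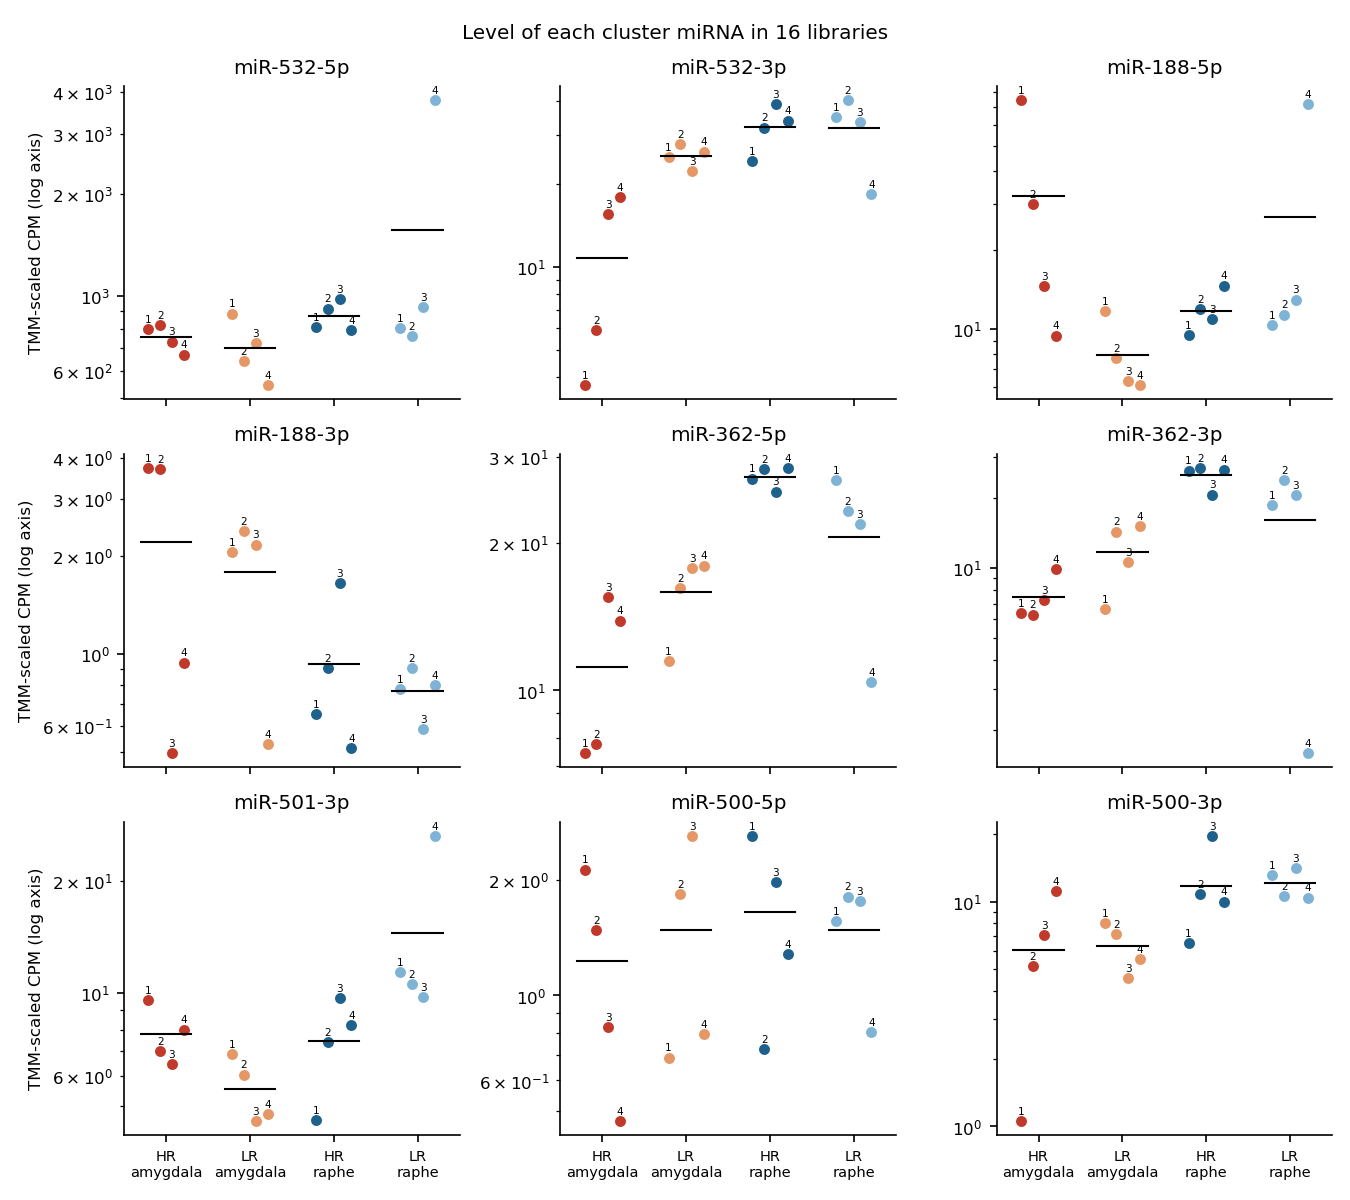
TMM-scaled CPM (log axis) of the 9 cluster miRNAs that passed the low count filter, by group (HR, high responder; LR, low responder); points are libraries with their replicate number and bars are arithmetic means of 4. miR-362-5p and miR-362-3p sit lower in amygdala than in most raphe libraries, and low responder raphe replicate 4 stands far from its group for miR-532-5p, miR-188-5p, miR-362-3p and miR-501-3p.

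The first comparison, of amygdala with dorsal raphe, asked whether the cluster marks a region. Both arms of miR-362 and miR-500-3p were lower in amygdala, by 1.78-fold to 2.17-fold averaged over the lines, and no tested member was called higher. Called here means an adjusted p under 0.05 in edgeR's quasi-likelihood test, with Benjamini-Hochberg adjustment over all 639 miRNAs. Of the 7 members tested 3 were called lower, and 14.9% of all miRNAs tested were called lower (24.3% in either direction). The median log2 fold change of these 7 was -0.69, beside -0.08 over all miRNAs tested, and 6 of the 7 values were below 0. The -0.69 is the value of miR-532-5p. Without replicate 4 of low responder raphe the medians were -0.42 and 0.08, and without both libraries that stood apart they were -0.36 and 0.22. Without both libraries that stood apart miR-362-5p and miR-362-3p were still called and miR-500-3p was not (log2 fold change -0.61, adjusted p = 0.0663 in edgeR).

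miR-362-5p stood at 7.45, 7.76, 15.5 and 13.9 CPM in high responder amygdala replicates 1 to 4 and at 11.5, 16.2, 17.8 and 18 CPM in low responder amygdala. It stood at 27.1, 28.4, 25.5 and 28.5 CPM in high responder raphe and at 26.9, 23.3, 21.9 and 10.4 CPM in low responder raphe. All 8 amygdala libraries lay below 7 of the 8 raphe libraries, and low responder raphe replicate 4 lay among the amygdala values. The log2 fold change averaged over the lines was -0.83 (SE 0.22; edgeR adjusted p = 0.00853). It passed under all 23 alternative analyses, with adjusted p from 0.00105 to 0.0434.

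miR-362-3p, the other arm of that hairpin, stood at 6.39, 6.28, 7.27 and 9.88 CPM in high responder amygdala and at 6.65, 14.3, 10.6 and 15.1 CPM in low responder amygdala. It stood at 26.1, 26.8, 20.6 and 26.4 CPM in high responder raphe and at 18.6, 23.7, 20.5 and 1.60 CPM in low responder raphe. The last value comes from low responder raphe replicate 4, with 2 counts, and the other 7 raphe libraries all lay above the amygdala libraries. The log2 fold change was -1.12 (SE 0.32; edgeR adjusted p = 0.0147). It did not pass without low responder amygdala replicate 3, high responder raphe replicate 2, high responder raphe replicate 4 or high responder amygdala replicate 2, with adjusted p up to 0.0575. Leaving out each of these 4 libraries in turn left 1 member called.

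miR-500-3p stood at 1.06, 5.17, 7.11 and 11.1 CPM in high responder amygdala and at 8.02, 7.17, 4.56 and 5.55 CPM in low responder amygdala. It stood at 6.53, 10.8, 19.6 and 10 CPM in high responder raphe and at 13.1, 10.6, 14.1 and 10.4 CPM in low responder raphe. The low responder groups did not overlap and the high responder groups did. The 1.06 CPM of high responder amygdala replicate 1 comes from 2 counts. The log2 fold change averaged over the lines was -0.92 (SE 0.31; edgeR adjusted p = 0.0408), and it passed in 10 of 23 alternative analyses, with adjusted p from 0.0138 to 0.166.

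The remaining members did not pass. miR-532-5p averaged 727 ± 109 CPM in amygdala and 1220.5 ± 1039 CPM in raphe (SD, n = 8 libraries each), a log2 difference of -0.69 (SE 0.29; edgeR adjusted p = 0.0942). Without replicate 4 of low responder raphe the difference was -0.21 (adjusted p = 0.257 in edgeR), and without both libraries that stood apart -0.05 (adjusted p = 0.782). Its raphe mean holds 3785 CPM in low responder replicate 4, while the other 7 raphe libraries ranged from 758 to 979.9 CPM. miR-501-3p had a log2 fold change of -0.65 (SE 0.25, adjusted p = 0.0591) and miR-500-5p of -0.31 (SE 0.43, adjusted p = 0.588). The value of miR-501-3p was -0.42 without replicate 4 of low responder raphe (adjusted p = 0.107 in edgeR). It was -0.32 without both libraries that stood apart (adjusted p = 0.212). miR-188-3p, with few counts, was the only tested member with a positive value (1.10, SE 0.49, adjusted p = 0.107). It was called higher without low responder amygdala replicate 4 (adjusted p = 0.0404 in edgeR), and without high responder amygdala replicate 3 (0.0387) or 4 (0.045).

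**Figure D2:**
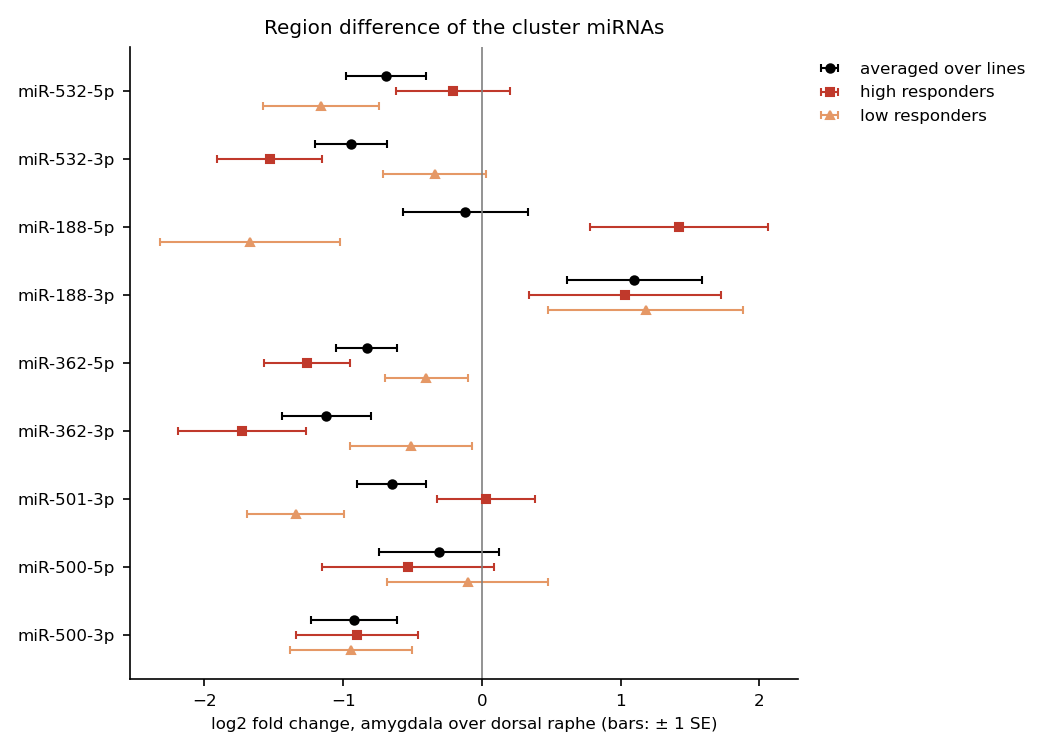
Log2 fold change of amygdala over dorsal raphe for the 9 cluster miRNAs, with bars of 1 SE from edgeR, averaged over the lines (circles), in high responders (squares) and in low responders (triangles). Both miR-362 arms lie below 0 in each line, and miR-188-5p lies above 0 in high responders and below 0 in low responders.

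Within high responders both miR-362 arms were lower in amygdala without overlap between the groups. The log2 fold change was -1.26 for miR-362-5p (SE 0.31; edgeR adjusted p = 0.00949) and -1.73 for miR-362-3p (SE 0.46, adjusted p = 0.0158). They were 2 of the 7 members, where 6.57% of all miRNAs were called lower (13.1% in either direction) and 12.4% were lower without overlap. Without high responder raphe replicate 2 or 4, or without high responder amygdala replicate 2, only miR-362-5p was called. Within low responders miR-501-3p was the 1 member called (log2 fold change -1.34, SE 0.35, adjusted p = 0.0160), where 10.5% of all miRNAs were called lower (14.1% in either direction). It stood at 6.88, 6.06, 4.56 and 4.75 CPM in low responder amygdala and at 11.4, 10.6, 9.78 and 26.4 CPM in low responder raphe. The groups did not overlap, as for miR-500-3p in this line, where 13.1% of all miRNAs were lower without overlap. Without replicate 4 of low responder raphe the value of miR-501-3p was -0.82 (adjusted p = 0.0606 in edgeR), and without both libraries that stood apart -0.70 (adjusted p = 0.0806). It was not called without replicate 2, 3 or 4 of low responder amygdala either, and in each of these fits 0 members were called. The high and low responder comparisons use separate libraries, and a call in 1 line does not show a difference between lines.

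The comparison of high with low responders asks whether the cluster goes with the bred trait. In amygdala 0 of the 7 tested members were called, as were 0 of all 639 miRNAs (0%) in edgeR. At an unadjusted p under 0.05 there were 0 members and 65 miRNAs. DESeq2 called 0 members among 19 miRNAs, and limma-voom called 0 miRNAs. The log2 fold changes of these members ran from -0.64 (miR-362-3p, SE 0.45, adjusted p = 0.709) to 0.47 (miR-501-3p, SE 0.35, adjusted p = 0.709). In dorsal raphe 0 members were called, again with 0 of all miRNAs (0%), and DESeq2 and limma-voom called 0. Here 1 member, miR-501-3p, and 70 miRNAs had an unadjusted p under 0.05. miR-501-3p stood at 4.57, 7.41, 9.72 and 8.21 CPM in high responder raphe, all below the low responder values given above (log2 fold change -0.90 with SE 0.35; edgeR adjusted p = 0.358). Of all miRNAs 3.6% were lower in high responder raphe without overlap. Without low responder replicate 4 the value of miR-501-3p was -0.37 (adjusted p = 0.996 in edgeR).

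miR-188-5p and miR-532-3p differed in opposite directions between the lines in amygdala. miR-188-5p stood at 74.5, 29.9, 14.5 and 9.41 CPM in high responder amygdala and at 11.7, 7.72, 6.29 and 6.08 CPM in low responder amygdala. Replicate 4 of the high responders lay within the low responder range. The log2 fold change was 1.99 (SE 0.65), and 1.17 without high responder replicate 1. miR-532-3p stood at 3.73, 5.91, 15.5 and 17.9 CPM in high responder amygdala and at 25, 27.9, 22.3 and 26.2 CPM in low responder amygdala. These groups did not overlap, and 3.76% of all miRNAs were lower in high responder amygdala without overlap. Its log2 fold change was -1.19 (SE 0.38). The 2 high responder libraries highest in miR-188-5p, replicates 1 and 2, were the 2 lowest in miR-532-3p, and they also had the fewest counts of the group, 1741167 and 2561377. Some cell marker lists also differed between the lines in amygdala. The 4 microglia and leukocyte markers summed to 328 to 785 CPM in high responder amygdala and 929.6 to 1263 CPM in low responder amygdala. The 4 neuronal markers summed to 89019.8 to 128698 CPM in high responder amygdala and 63151 to 86062 CPM in low responder amygdala. Neither list overlapped between the lines. The sums were not tested, and the share of all miRNAs higher in high responder amygdala without overlap is not given here. The 2 choroid plexus markers summed to 8799.8 to 15439 CPM in high responder amygdala and 917 to 9818 CPM in low responder amygdala, with overlap. The oligodendrocyte, vessel, erythrocyte, muscle and hindbrain Hox sums overlapped between the lines too. For this line difference edgeR called 0 miRNAs, markers among them. The part of cell types, and of depth, in the line differences of miR-188-5p and miR-532-3p was not tested. Over the alternative analyses the log2 fold change of miR-188-5p ranged from 1.16 to 2.35 and that of miR-532-3p from -1.52 to -0.95.

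In dorsal raphe miR-188-5p stood at 9.46, 11.9, 10.9 and 14.6 CPM in high responders and at 10.3, 11.3, 12.9 and 72.1 CPM in low responders. All but the last overlap, and the log2 fold change of -1.10 (SE 0.64) was 0.15 without low responder replicate 4. miR-532-3p stood at 24.2, 32.0, 39.0 and 33.9 CPM in high responder raphe and at 35, 40.2, 33.5 and 18.4 CPM in low responder raphe, with overlap (0.01, SE 0.37). Without both libraries that stood apart the value was -0.08. Between regions, miR-188-5p was higher in amygdala than in raphe of high responders (1.42, SE 0.64) and lower in low responders (-1.67, SE 0.65). The high responder value was 0.66 without amygdala replicate 1, and the low responder value was -0.43 without raphe replicate 4. For miR-532-3p the values were -1.53 (SE 0.38) in high responders, without overlap, and -0.34 (SE 0.37) in low responders. The low responder value was -0.15 in the fit without high responder amygdala replicate 1.

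The interaction of line and region, which tests whether the line difference differs between regions, gave 0 calls among the 7 tested members and 0 among all miRNAs (0%) in edgeR. At an unadjusted p under 0.05 there were 1 member, miR-501-3p, and 81 miRNAs. DESeq2 called 0 members among 22 miRNAs, and limma-voom called 0 miRNAs. For miR-501-3p the interaction was 1.37 (SE 0.49; edgeR adjusted p = 0.243), and 0.76 (adjusted p = 0.514) without both libraries that stood apart. For miR-188-5p it was 3.09 (SE 0.91), given as a description, and 1.05 without both libraries that stood apart. For miR-532-3p it was -1.19 (SE 0.53).

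The second question was how far the members move together once group differences are removed. Each log2 CPM was set against the mean of its group, and the 36 pairs of the 9 members that passed the filter were correlated over the 16 libraries. Pairs that hold miR-188-5p or miR-532-3p are given without a test. Of the other 21 pairs 3 passed at an adjusted p under 0.05: the arms of miR-362 varied together, and both varied against miR-532-5p. The adjustment ran over all 36 pairs, those with a selected miRNA among them, and was not run over the 21 alone. The adjusted values therefore rest partly on the selected miRNAs. The miR-362 arms, with an adjusted exact permutation p of 0.0442, may not pass without them. The r of the 36 pairs ran from -0.99 to 0.82 with a median of -0.13. Over all 203841 pairs of miRNAs tested the median was 0.01, with 5th and 95th percentiles of -0.79 and 0.85, and the member pairs lay at -0.85 and 0.79. The arms of miR-362 (0.80) lay inside these percentiles of all pairs. miR-532-5p lay at the lower one with miR-362-5p (-0.79) and below it with miR-362-3p (-0.99). The share of all pairs that would pass the test is not given here, so the count of 3 is not particular to the cluster.

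miR-532-5p and miR-362-3p were the most opposed pair (Pearson r = -0.99, exact permutation p within groups 0.000232, adjusted over 36 pairs 0.00836). The Spearman rho was -0.96 (exact permutation p = 0.000169, adjusted 0.00608). Without the 2 libraries farthest from the median of miR-532-5p, low responder raphe replicates 2 and 4, r was -0.87. In low responder raphe replicate 4 miR-532-5p lay 1.65 above its group mean on the log2 scale and miR-362-3p stood at -2.54 from its own.

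The arms of miR-362 varied together (r = 0.80, exact permutation p = 0.00859, adjusted 0.0442; rho = 0.73, exact permutation p = 0.0066, adjusted 0.0397), with r at 0.61 without the 2 libraries farthest on miR-362-5p. miR-532-5p also went against miR-362-5p (r = -0.79, exact permutation p = 0.0023, adjusted 0.0276; rho = -0.77, exact permutation p = 0.00263, adjusted 0.0397), with r at -0.65 without the 2 farthest. miR-501-3p and miR-500-3p, which share a seed, had r = 0.03 (exact permutation p = 0.877, adjusted 0.929; rho = 0.18, adjusted 0.602) and -0.12 without the 2 farthest, but 0.81 without both libraries that stood apart. Without those 2 libraries 0 of the 21 pairs passed, and miR-532-5p with miR-362-3p was at -0.87 (adjusted p = 0.0799 by exact permutation). The count was 1 without high responder amygdala replicate 1, low responder raphe replicate 4, or low responder amygdala replicate 1 or 4, and 5 without low responder amygdala replicate 3.

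The r values of the selected miRNAs are a description. miR-188-5p and miR-532-3p, whose hairpins are neighbours at 321 bases, stood at r = -0.83 (rho = -0.79), and at -0.63 without both libraries that stood apart. miR-188-5p stood at 0.76 with miR-532-5p (rho = 0.77) and at 0.72 with miR-501-3p (rho = 0.66), which were 0.58 and 0.26 without both libraries. Its r with miR-362-5p was -0.91 and with miR-362-3p -0.78, and these were -0.82 and -0.61 without both. miR-532-3p stood at 0.82 with miR-500-3p (rho = 0.71; 0.67 without both libraries) and at -0.47 with the other arm of its own hairpin (rho = -0.56; -0.28 without both).

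**Figure D3:**
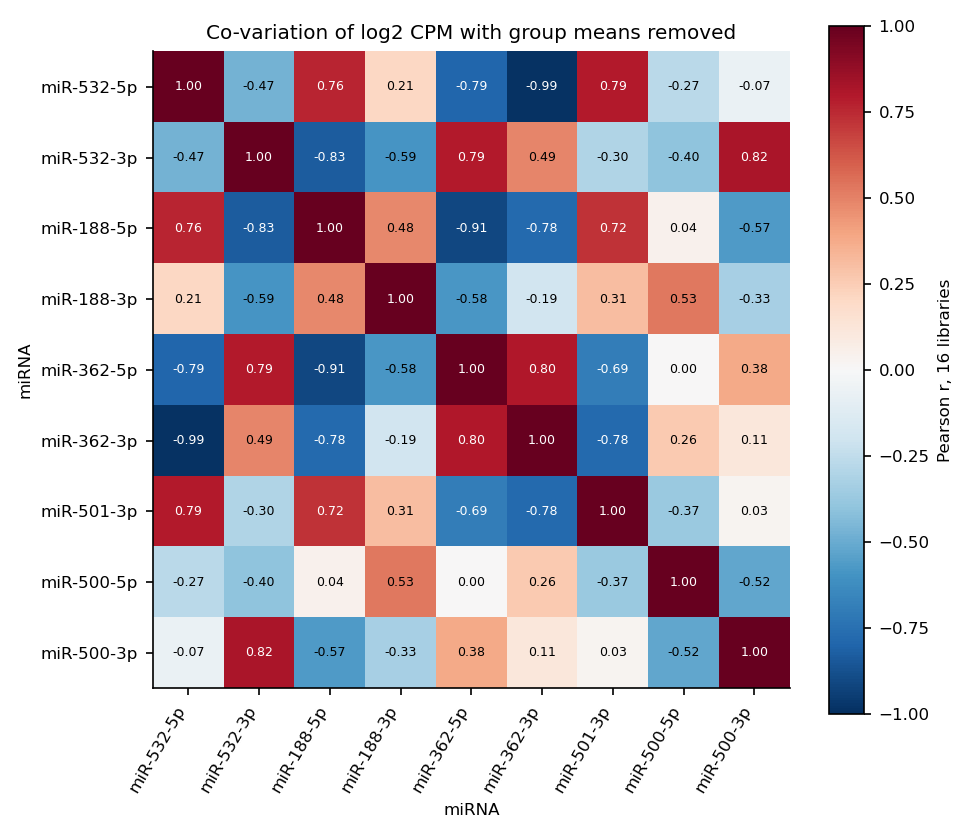
Pearson r between the 9 cluster miRNAs over 16 libraries, from log2 CPM with the group mean removed. Red pairs vary together and blue pairs oppose each other; miR-532-5p with miR-362-3p is at -0.99 and miR-532-3p with miR-500-3p at 0.82.

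Library depth moved with several members, within the range seen over all miRNAs. With group means removed, the r with the log2 of the total count was 0.82 for miR-362-5p (exact permutation p = 0.00169, adjusted over 9 members 0.0152; rho = 0.79, adjusted 0.0215). It was 0.65 for miR-500-3p (rho = 0.59, adjusted 0.0751), 0.55 for miR-362-3p (rho = 0.52, adjusted 0.0751) and -0.53 for miR-532-5p (rho = -0.49, adjusted 0.0862), each with an adjusted exact permutation p of 0.0492 for r. These were 4 of the 7 tested members past an adjusted p of 0.05 by r, and 1 of 7 by rho. The adjustment over 9 members includes both selected miRNAs and was not run over the 7 alone. The members at 0.0492 may not pass without the selected miRNAs. Without the 2 libraries farthest in depth, high responder amygdala replicates 1 and 3, r was 0.75 for miR-362-5p, 0.55 for miR-500-3p, 0.67 for miR-362-3p and -0.64 for miR-532-5p. As a description, r was 0.83 for miR-532-3p and -0.77 for miR-188-5p, or 0.67 and -0.48 without both libraries that stood apart. Over all 639 miRNAs the 5th and 95th percentiles of this r were -0.82 and 0.86, and each r given here over the 16 libraries lay inside them. The share of all miRNAs past an adjusted p of 0.05 is not given here, so the count of 4 is not particular to the cluster. The part of depth in the co-variation was not tested.

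**Figure D4:**
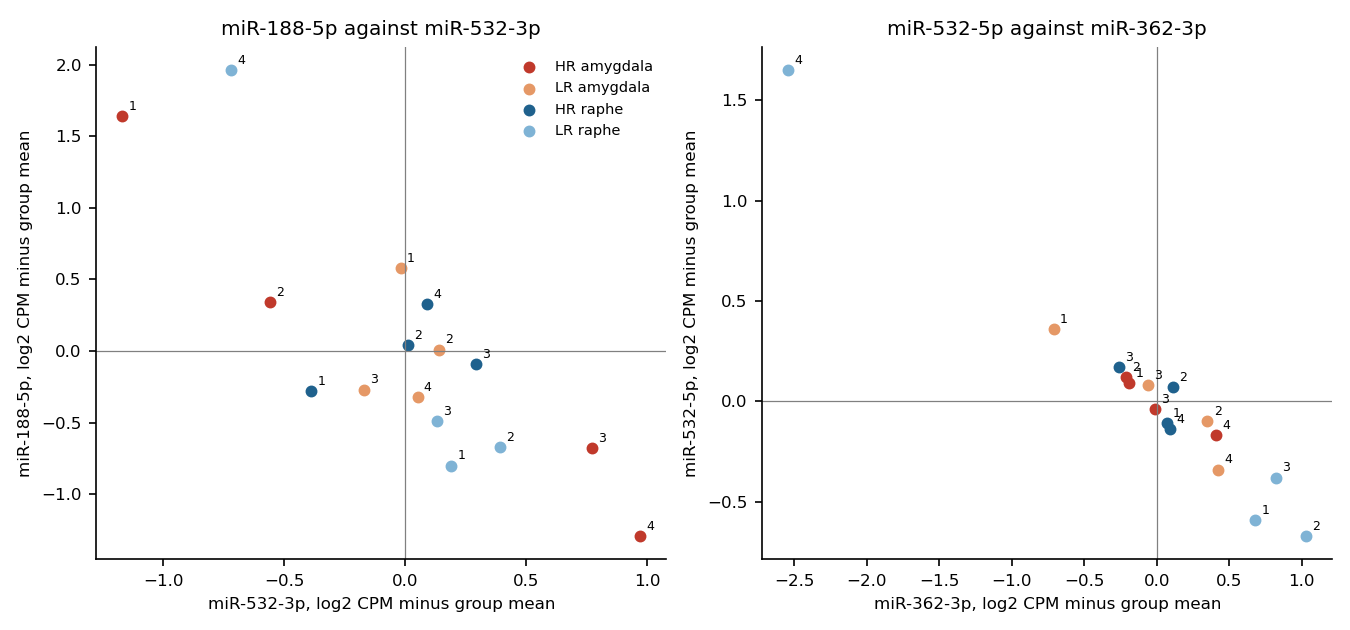
Deviation of log2 CPM from the group mean for miR-188-5p against miR-532-3p (left) and miR-532-5p against miR-362-3p (right); points are the 16 libraries, numbered by replicate and coloured by group (HR, high responder; LR, low responder). On the left high responder amygdala replicate 1 lies at -1.17 and 1.64, and on the right low responder raphe replicate 4 lies at -2.54 and 1.65.

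Each member had miRNAs outside the cluster that followed it more closely than any fellow member did. The miRNAs outside the cluster are far more numerous than the fellow members, so a higher best r is likely among them. It does not show that members are unlike each other. miR-188-5p was most like miR-370-3p (r = 0.98), miR-9b-5p and miR-671 (0.95 each), while its best fellow, miR-532-5p, ranked 78 of 638. miR-532-3p was most like miR-125a-5p (0.95), miR-503-5p and miR-23a-3p (0.94 each), with miR-500-3p at rank 123. miR-362-5p was most like miR-143-5p (0.97), miR-31a-5p (0.96) and miR-361-5p (0.95), with miR-362-3p at rank 115. miR-362-3p was most like miR-541-3p (0.90), miR-381-5p (0.89) and miR-206-5p (0.88), with miR-362-5p at rank 14. miR-532-5p followed miR-7b and miR-143-3p (0.96 each) and miR-28-3p (0.95), with miR-501-3p at rank 68. miR-501-3p followed miR-667-5p and miR-485-5p (0.88 each) and miR-504 (0.87), with miR-532-5p at rank 19. miR-500-3p followed miR-451-5p (0.88), miR-136-3p (0.87) and miR-652-3p (0.86), with miR-532-3p at rank 11. The rare miR-188-3p followed miR-130b-5p and miR-497-3p (0.84 each) and miR-466b-2-3p (0.81), and miR-500-5p followed miR-3583-3p (0.79), miR-126b (0.73) and miR-3566 (0.71). These r values, over 16 libraries with group means removed, are a description, and they share depth and library.

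The hairpins differed in which arm gave more counts. Which arm is kept in Argonaute was not measured. Over all libraries miR-532 gave 60309 counts of the 5p and 1971 of the 3p arm, a ratio of 30.6, and miR-188 gave 1007 and 92, a ratio of 10.9. miR-362 was nearly even, with 1450 counts of the 5p and 1172 of the 3p arm. miR-501 and miR-500 gave more of the 3p arm, with 579 counts of 3p and 82 of 5p for miR-501. For miR-500 these were 697 of 3p and 103 of 5p. The arm ratio within a hairpin and library does not depend on library scaling.

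For miR-532 the ratio of 5p to 3p counts, with 0.5 added to each arm, was 200 (log2 7.65), 134 (7.07), 46.9 (5.55) and 37.2 (5.22) in high responder amygdala replicates 1 to 4. In low responder amygdala it was 35.2, 22.8, 32.3 and 20.7 (log2 4.37 to 5.14). In high responder raphe it was 33.2, 28.6, 25 and 23.3 (log2 4.54 to 5.05), and in low responder raphe 22.8, 18.8, 27.6 and 201 (log2 4.23 to 7.65). All high responder amygdala libraries lay above low responder amygdala, and low responder raphe replicate 4 was as high as the highest of them. The 3p arm held 7 and 16 counts in high responder amygdala replicates 1 and 2 and 23 in low responder raphe replicate 4. For miR-188 the log2 ratio averaged 3.75 ± 0.82 in high responder amygdala, 2.24 ± 0.86 in low responder amygdala, 3.59 ± 0.76 in high responder raphe and 4.31 ± 1.12 in low responder raphe (SD, n = 4 each). The lines overlapped within each region and the regions overlapped in high responders, while low responder amygdala (1.49 to 3.37) lay below low responder raphe (3.49 to 5.91). The 3p arm of miR-188 held 1 to 13 counts in a library. Both hairpins hold a selected arm, so these ratios are not tested. The share of other hairpins whose ratios separate between groups is not given here. Neither separation can therefore be read as particular to these hairpins.

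The ratio was tested for miR-362 and miR-500, in 6 exact permutation tests, of which 0 passed at an adjusted p of 0.05. For miR-362 the log2 ratio averaged 0.50 ± 0.33 in amygdala and 0.45 ± 0.82 in raphe (SD, n = 8 each; difference 0.06, two-sided exact permutation p = 0.915). For miR-500 it averaged -2.10 ± 1.60 in amygdala and -2.84 ± 0.73 in raphe (difference 0.74, two-sided exact permutation p = 0.286, adjusted 0.915). The 4 line differences had exact p from 0.371 to 0.886, where 4 against 4 libraries cannot go below 0.0286. Among these tests 0 had an unadjusted p under 0.05.

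**Figure D5:**
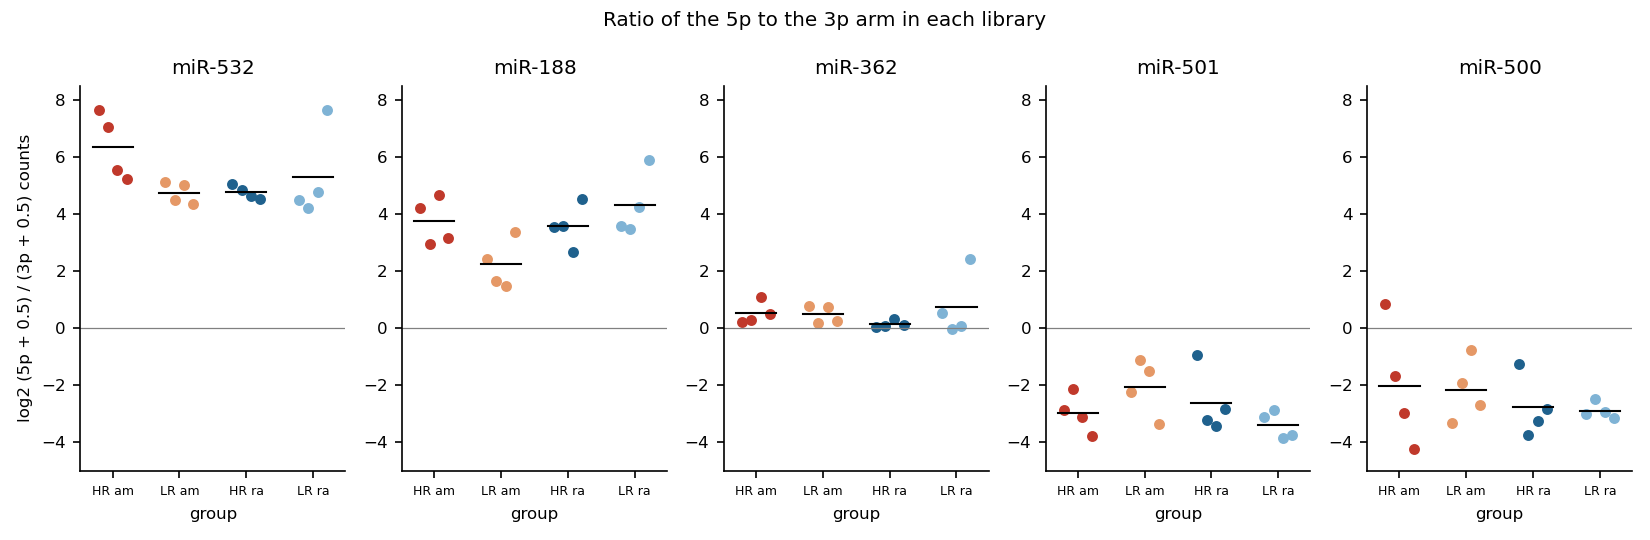
Log2 ratio of 5p to 3p counts, with 0.5 added to each, for each hairpin in each library (HR, high responder; LR, low responder; am, amygdala; ra, raphe); bars are means of 4. miR-532 and miR-188 lie above 0, miR-501 lies below 0 and miR-500 in all but high responder amygdala replicate 1, and the ratio of miR-532 reaches 7.65 in high responder amygdala replicate 1 and low responder raphe replicate 4.

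Other X-linked miRNAs give a frame for the region difference. A list of 71 rows, written from background knowledge, had 64 that passed the filter. Of these 10 were called higher in amygdala and 3 lower, with a median log2 fold change of 0.26, while the tested members had a median of -0.69, or -0.36 without both libraries that stood apart. The 0.26 is from all 16 libraries, and the value of the list without both is not given here. Over all miRNAs the median was -0.08 with all libraries and 0.22 without both. Of all miRNAs 9.39% were called higher. The listed miRNAs of lowest p were miR-222-3p (2.36, SE 0.19, adjusted p = 7.19e-08 in edgeR), miR-221-5p (2.06, SE 0.23), miR-1912-3p (3.63, SE 0.47) and miR-221-3p (2.90, SE 0.38). No difference between the lists was tested.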

How the data were processed

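Small RNA was extracted with miRNeasy kits and made into Illumina small RNA libraries with size selection, per the labels' protocols. The authors deposited read counts per mature miRNA, 1 table of 722 miRNAs per library. Tools listed in the submitters' processing notes are cutadapt 1.3.1, Bowtie2 and bedtools 2.14.2. For the genome build, the miRNA annotation and multiply matching reads, nothing is given in the sources used here. Groups and replicate numbers come from the sample titles. Whether a group's samples are different rats is not stated, and p-values then cover only sample spread, which may be technical. No library was a copy of another (lowest chi-square per degree of freedom 55.4 over 120 pairs).

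Low counts were removed (filterByExpr, count at least 10 and total at least 15), which kept 639 miRNAs and dropped 83, and scaled by TMM factors of 0.596 (low responder raphe replicate 4) to 1.27. Log2 CPM uses a prior count of 2. Differences were tested with edgeR 4.0.16 (R 4.3.3), by the robust quasi-likelihood test in 1 model of 4 group means over 16 libraries, with Benjamini-Hochberg adjustment over all 639. SE is the log2 fold change divided by the root of F. Correlations were permuted within groups over all 331776 arrangements, with adjustment over 36 pairs, of which the 21 without a selected miRNA are counted. The fits and correlations were checked on simulated data. Alternatives used DESeq2 1.42.0 and limma 3.58.1.

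The cluster, the lists and the tests were chosen with earlier results of these data known. Named are all rows of the cluster, the 3 miRNAs most like each member, and the 4 listed X-linked miRNAs of lowest p. Same-numbered high and low responder amygdala libraries deviated together across miRNAs (r = 0.69, 0.29, 0.21 and 0.51, all above the criterion of 0.1), a pairing seen in the data and not described in the labels. The tests reported do not use it, and an alternative fit has the number as a block. No other 2 groups met the criterion in every pair.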

Additional observations from a re-analysis of the deposited data

Results flagged for a closer look

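In groups of 4 a library was set apart where its gap to the next, divided by the range of the group, passed Dixon's 95% value. Of 56 groups checked (9 miRNAs and 5 arm ratios in 4 groups) 7 passed, where chance gives about 1 in 20. Low responder raphe replicate 4 accounts for 5 of them. Its log2 CPM was 11.89 for miR-532-5p, 6.18 for miR-188-5p and 4.75 for miR-501-3p, each above the others of its group, and 1.03 for miR-362-3p, below them. Its log2 ratio of the miR-532 arms was 7.65, above the others. miR-188-3p in low responder amygdala replicate 4 stood at a log2 CPM of -0.05, from 4 counts, below its group. miR-362-3p in high responder raphe replicate 3 stood at 4.39, below its group.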

How the results depend on the processing

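No called value changed its direction. DESeq2, limma-voom, library totals as the scaling, no low count filter and the replicate block each gave the same counts of called members as reported, 3 averaged over the lines, 2 in high responders, 1 in low responders and 0 for the line differences and the interaction. The replicate block changed no call and was not fitted to correlations or arm ratios. Library totals moved the median log2 fold change of all miRNAs by 0.20 (lines in raphe), -0.19 (regions in high responders), 0.14 (regions in low responders) and -0.33 (interaction). With 1 library left out, the count of called members was 1 to 4 for the averaged region difference, 1 to 2 in high responders, 0 to 1 in low responders and 0 for each line difference and the interaction. It was 1 to 5 for correlated pairs, 3 as reported, and 0 for arm ratios. In 3 of the fits with 1 library left out, the averaged region count includes miR-188-3p, called higher in amygdala. Added after seeing the data, leaving out both libraries that stood apart gave 0 correlated pairs, 0 calls in low responders and 2 averaged over the lines. Leaving out the 3 shallowest libraries (up to 2419326 counts), also added after seeing the data, gave 4 averaged over the lines, with miR-501-3p among them (-0.48, adjusted p = 0.0434, over alternatives 0.0311 to 0.212). The planned analysis without the shallowest libraries was set for at most 2 and was not run as such, since 3 met its depth limit. The causes were not tested, beyond fewer samples in these fits. Depth limits miR-188-3p, miR-500-5p and miR-501-5p, at 1 to 15 counts a library. It also limits miR-500-3p in high responder amygdala replicate 1 and miR-362-3p in low responder raphe replicate 4, at 2 counts each.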
